A study of Mus musculus with 14 samples.

Results

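Whole testis of 4-week-old C57BL/6 mice was compared between wild type (WT) and Glis3KO2, the label of mice in which Glis3 was disrupted. The GLIS3 protein is a DNA-binding regulator with zinc fingers, akin to the GLI factors that hedgehog signals act through. The 6 arrays described here are the 3 labelled 4-week WT and the 3 labelled 4-week Glis3KO2, out of 14 arrays in all, the other 8 being 4 of each genotype at 1 week. The sample labels give 4 weeks, while the series description gives 3 weeks for the older mice, and the sample labels are followed. The labels do not name the disrupted exon, do not describe a tissue-restricted driver and leave it unsaid whether every sample is its own animal. The p-values therefore cover the spread among these samples, which may be technical.

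By this age the seminiferous tubule of a normal mouse holds spermatogonia, the mitotic cells at its base, spermatocytes in meiosis, and haploid spermatids, which build the acrosome and the flagellum and replace histones with protamines. Sertoli cells support the germ cells inside the tubule, peritubular muscle-like cells surround it, and Leydig cells between the tubules make androgens. Array signal from whole testis reflects both how many cells of a type are present and how much RNA each holds, and these cannot be told apart here.

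Signal is given as log2 after division by the 75th percentile of its array, so 0 marks a bright probe of that array, and a log2 difference is Glis3KO2 minus WT. A gene was called when its Benjamini-Hochberg adjusted p from limma was under 0.05. On the 4-week arrays 75.3% to 78.6% of spots other than controls were well above background, and the small number of arrays limits the precision. The WT arrays correlated with each other at 0.994 to 0.996, a value taken over genes, which do not count as replicates. Replicate 3 of Glis3KO2 stood nearer to WT than the other Glis3KO2 arrays, at 0.934 to 0.946 against 0.861 to 0.880. It shares slide 5 with WT replicate 2, and the other 4 arrays lie on slide 4, so among the Glis3KO2 arrays slide and replicate cannot be told apart. WT replicate 2, on the same slide, correlated at 0.994 with each of the other WT arrays, which correlated at 0.996 with each other. Of the WT arrays it had the lowest correlation with every Glis3KO2 array.

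The check of the targeted gene was void at this age. Glis3 is read by 1 probe of 60 bases, printed below as the only measure of the disrupted gene, which the deposited annotation places on the minus strand of chromosome 19 at chr19:28054217-28057750 (mm7), a span of 3534 bases that includes an intron. Whether the probe lies in the part of the gene that was disrupted is not known.
Glis3 probe: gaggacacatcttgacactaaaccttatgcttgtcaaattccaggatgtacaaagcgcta
In 4-week WT its log2 signals were -6.56, -6.62 and -7.20, and in 4-week Glis3KO2 they were -8.31, -6.69 and -7.23. The groups overlapped, and the probe was well above background on 0 of 3 arrays of either genotype, so no fold is given (exact two-sided permutation p = 0.2, the smallest possible being 0.1). At 1 week the same probe was above background on 4 of 4 WT arrays, with a mean of -4.90 ± 0.18 (SD, n = 4), and on 0 of 4 Glis3KO2 arrays. The genotype of the 4-week samples therefore rests on their labels.

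Loss of Glis3 went with a change in most of the transcripts measured. Of 21167 genes tested, 7665 were lower in Glis3KO2 (36.2%) and 7089 were higher (33.5%), 69.7% in either direction, and the groups did not overlap for 77.5%. The median difference over all genes tested was -0.05, so the changes in the 2 directions were nearly balanced on this scale. Falls of at least 4-fold were more frequent than rises of that size, with 2655 genes (12.5%) against 1283 (6.06%). Beyond 16-fold the order was the other way round, with 29 genes lower and 45 higher. Background treatment moved the centre of the distribution most: with normexp correction the median difference was 0.08, with 6457 genes lower and 6433 higher.

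**Figure D1:**
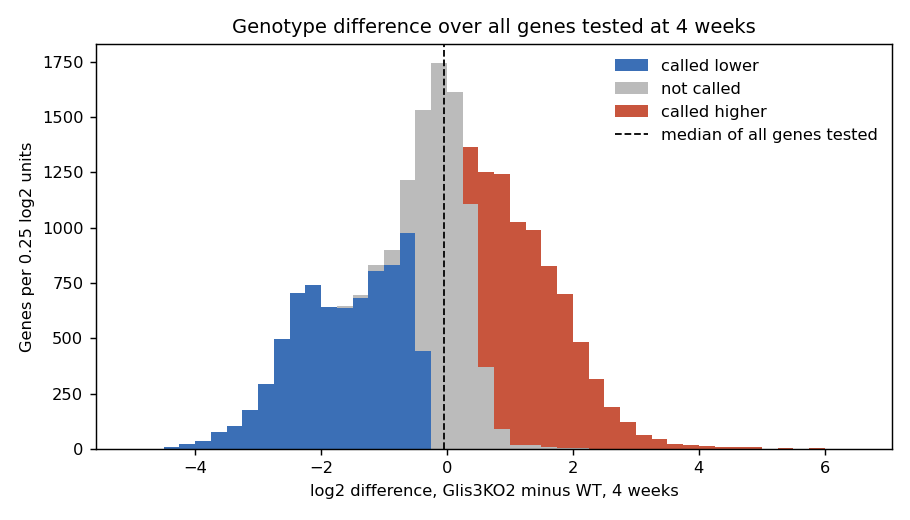
Histogram of the log2 difference, Glis3KO2 minus WT, at 4 weeks for the 21167 genes tested (horizontal axis, bins of 0.25; vertical axis, genes per bin), with genes called lower, not called and called higher stacked. The 7665 lower genes form a shoulder near -2 on the left, while the 7089 higher genes tail off smoothly to the right.

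The replicates of Glis3KO2 differed in how far they departed from WT. Among the 7665 genes called lower, the median distance from the WT mean was -1.79, -1.75 and -1.04 on Glis3KO2 replicates 1, 2 and 3, and replicate 3 was the nearest to WT for 80.9% of them. Among the 7089 genes called higher the medians were 1.47, 1.47 and 0.98, with replicate 3 nearest for 87.8%. Over all 21167 genes tested, replicate 3 was the nearest to WT for 15258. Replicate 3 thus showed the same directions with smaller distances. Without it 7948 genes were called lower and 8074 higher.

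Genes of meiosis and of spermatids made up the clearest falls, and the fall was deeper in lists of later stages. Of 23 genes of early meiotic prophase tested, 20 were lower and 0 higher, with a median log2 difference of -1.37. All 24 genes of pachytene spermatocytes were lower, with a median of -2.10, as were all 22 genes of round spermatids, with a median of -2.48, and all 22 tested genes of elongating spermatids, with a median of -2.99. These medians stand beside -0.05 for all genes tested, and the counts beside the 36.2% of genes lower in all. The order of the stages held for replicate 3, with medians of -0.81, -1.08, -1.50 and -2.18, and on replicate 2, with -1.65, -2.46, -3.01 and -3.74. On replicate 1 the round and elongating lists were level, at -2.93 and -2.90, after -1.44 and -2.64. Within slide 4 the medians of the 4 lists were -1.53, -2.53, -3.00 and -3.22, and within slide 5, with 1 array of each genotype, -0.80, -1.14, -1.61 and -2.41.

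**Figure D2:**
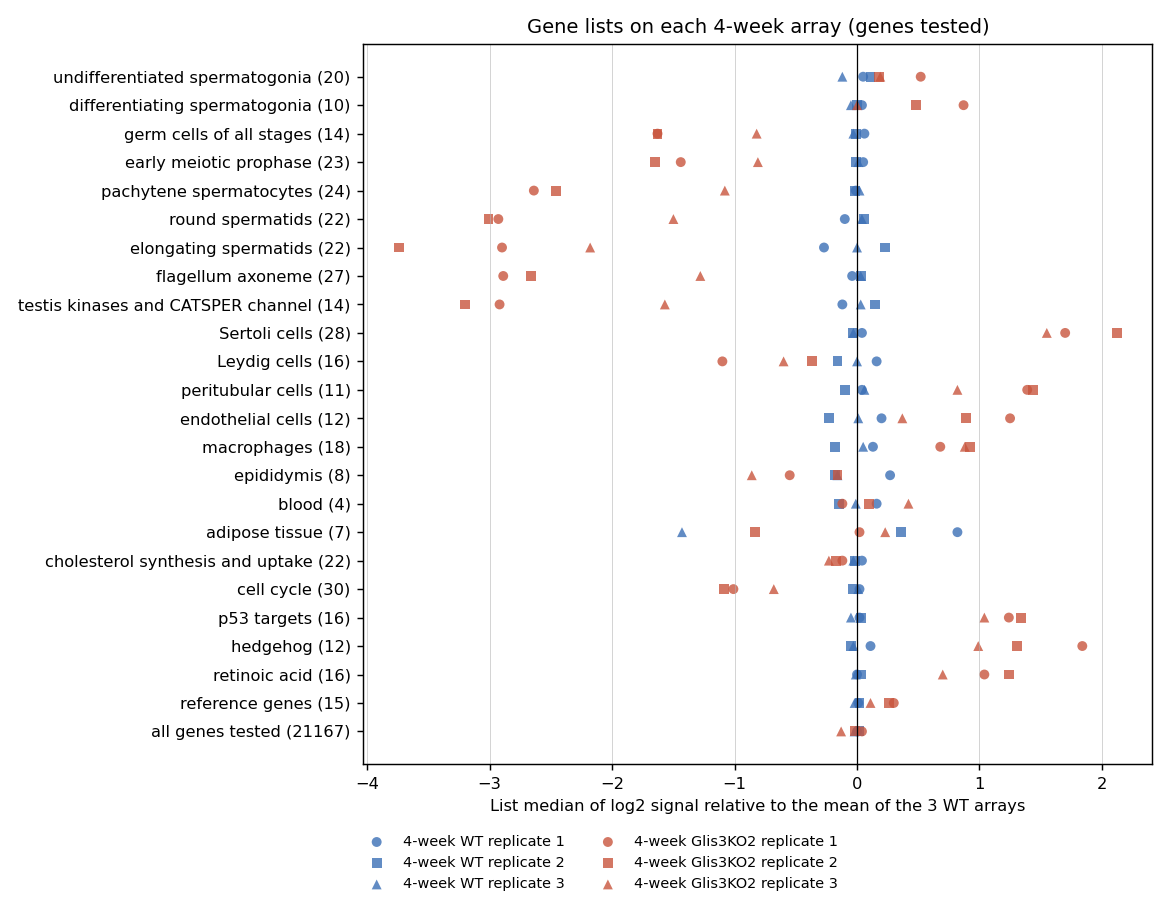
Median log2 signal of each gene list relative to the mean of the 3 WT arrays (horizontal axis), with 1 point per 4-week array and the number of genes tested in brackets; all genes tested are the bottom line. The Glis3KO2 arrays lie far left of WT in the meiotic, spermatid and flagellum lists, with replicate 3 the least displaced, and right of WT in the Sertoli list.

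At the onset of meiosis the synaptonemal complex and cohesin genes fell moderately. Sycp1, a transverse filament protein of the synaptonemal complex, had log2 signals of 3.01, 2.73 and 2.90 in WT and 1.44, 1.05 and 1.80 in Glis3KO2. Every Glis3KO2 array lay below every WT array, a 2.73-fold fall (log2 difference -1.45, SE 0.22, adjusted p = 0.0015). Sycp3, a protein of the chromosome axis, fell 2.18-fold (-1.12, SE 0.19, adjusted p = 0.0023), although its call was lost in the fit of all 14 arrays (adjusted p = 0.063). Smc1b, the meiotic cohesin subunit, fell 2.39-fold and Hormad1, an axis protein that monitors chromosome pairing, 2.59-fold. Spo11, which makes the DNA breaks of meiotic recombination, fell further, from 1.62, 1.40 and 1.63 in WT to -1.11, -0.88 and 0.55 in Glis3KO2, a 4.10-fold fall (-2.04, SE 0.42, adjusted p = 0.0047). Dmc1, the recombinase that acts on those breaks, did not pass (-0.30, SE 0.18, adjusted p = 0.18) and its groups overlapped. Tex11 and Rec114 were the other members that did not pass.

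Genes around the entry into meiosis differed in direction. Stra8, the gatekeeper of meiosis that retinoic acid induces, read 3.93, 3.85 and 3.96 in WT and 4.99, 4.54 and 3.90 in Glis3KO2. Glis3KO2 replicate 3 lay inside the WT range and the other replicates above it (0.56, SE 0.28, adjusted p = 0.11). Without replicate 3 the difference was 0.85 and passed the test (adjusted p = 0.0041), and it also passed on slide 4 alone (0.82) and with quantile normalization (0.99). Kit, the receptor of differentiating spermatogonia, was higher by 0.55 (SE 0.19, adjusted p = 0.038), with no overlap. The call was lost in 8 of 19 alternatives, among them without WT replicate 1, 2 or 3 (adjusted p 0.05, 0.13 and 0.12) or Glis3KO2 replicate 1 or 2 (0.098 and 0.09). Dmrtb1, a transcription factor of the mitosis-to-meiosis transition, fell from 3.66, 3.97 and 3.75 to 0.94, 1.08 and 2.37, a 5.04-fold fall (-2.33, SE 0.38, adjusted p = 0.0019). Of the 10 differentiating spermatogonial genes tested, Dmrtb1 was lower, Kit and the cyclin Ccnd2 (1.63) were higher and 7 did not pass, with a median of 0.45. The number higher was 6 without Glis3KO2 replicate 3 and 1 without any other single array.

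In the undifferentiated spermatogonia list, which holds the markers of the stem cell compartment, 3 of 20 genes tested were lower (15%, beside 36.2% of all genes). The 7 that were higher are a share of 35%, close to the 33.5% of all genes, and 10 did not pass, with a median of 0.20. The list has 27 members, and Ret, Zbtb16, Nanos2, Eomes, T, Sohlh1 and Upp1 were not tested. They were absent from the array or not above background on all arrays of either group. Gfra1, the co-receptor for GDNF, read -2.92, -2.51 and -2.78 in WT and -4.83, -5.47 and -4.84 in Glis3KO2. Its groups were well apart, a 4.94-fold fall (-2.31, SE 0.22, adjusted p = 0.00062), while a second, dimmer Gfra1 probe gave -0.35. Lhx1 (-1.54) and Id4 (-0.90), transcription regulators tied to stem cell maintenance, were the others that fell, with -0.24 on a second Id4 probe. Nanos3, a translational repressor, read -4.80, -4.47 and -4.96 in WT and -5.27, -4.57 and -4.63 in Glis3KO2, and the groups overlapped (-0.08, SE 0.24, adjusted p = 0.78). Lin28a, an RNA-binding protein, did not pass either (0.43, SE 0.18, adjusted p = 0.063) but did without Glis3KO2 replicate 3 (0.51, adjusted p = 0.03). Pou5f1, a pluripotency factor, was spread widely within Glis3KO2, at -3.34, -4.93 and -5.33 against -4.18 to -3.98 in WT (-0.43, SE 0.49, adjusted p = 0.46). Without Glis3KO2 replicate 1 Pou5f1 was lower (-1.03, adjusted p = 0.006). The 7 higher genes were Etv5, Foxo1, Pou3f1, Egr4, Piwil4, Cdh1 and Tspan8, from 0.52 for Etv5 to 2.54 for Tspan8. Several of these are also expressed by Sertoli or other somatic cells, among them Etv5 and Foxo1, and the part of other cells in their signal was not tested.

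Genes that mark germ cells across stages mostly fell. Of 14 tested, 11 were lower (78.6%, beside 36.2% of all genes) and 0 higher, with a median of -1.36. Ddx4, the germ cell RNA helicase, read 5.13, 4.99 and 5.18 in WT and 2.89, 3.17 and 4.15 in Glis3KO2, with no overlap (-1.70, SE 0.32, adjusted p = 0.0033). Its replicate 3 was the nearest to WT. Piwil2, a piRNA-binding protein of early germ cells, fell 2.63-fold, and its partners Tdrd1 and Mael, which act in the granules where piRNAs are made, fell 3.35-fold and 3.45-fold. Dazl, a translational regulator active from spermatogonia to spermatocytes, read 2.51, 2.42 and 2.34 in WT and 2.46, 2.05 and 2.09 in Glis3KO2, and the groups overlapped (-0.22, SE 0.16, adjusted p = 0.26).

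Pachytene spermatocytes complete recombination and switch on much of the programme of the haploid cell. Piwil1, the piRNA-binding protein of this stage, read 3.14, 2.94 and 3.06 in WT and 0.03, 0.52 and 2.03 in Glis3KO2. The WT arrays were tight, the Glis3KO2 arrays spread over 2 log2 units, and the groups did not overlap, a 4.55-fold fall (-2.19, SE 0.48, adjusted p = 0.0061). Mybl1, the transcription factor that drives pachytene genes and piRNA precursors, fell from -1.81, -1.84 and -1.76 to -4.79, -4.29 and -2.85, a 4.51-fold fall (-2.17, SE 0.47, adjusted p = 0.0054). Ccna1, the cyclin needed for the first meiotic division, fell 5.15-fold and Hspa2, the chaperone of spermatocytes, 3.48-fold. The testis linker histone H1f6 fell 3.93-fold. Rfx2, a transcription factor of spermatid differentiation, fell 4.06-fold, from 1.18, 1.11 and 1.24 to -1.43, -1.23 and 0.13. Ldhc, the germ cell lactate dehydrogenase, had the smallest difference of the list, from 7.60, 7.86 and 7.65 to 6.69, 6.91 and 7.44 (-0.69, SE 0.22, adjusted p = 0.028). Its call was lost in 7 of 19 alternatives, among them the removal of any array other than Glis3KO2 replicate 3 (adjusted p 0.06 to 0.093).

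Round spermatids form the acrosome, the vesicle that carries enzymes for fertilization. Acrv1, a protein of the acrosomal matrix, read 2.83, 2.81 and 3.00 in WT and -0.16, -0.36 and 1.21 in Glis3KO2, a 6.28-fold fall (-2.65, SE 0.40, adjusted p = 0.0016). Acr, the protease acrosin, fell 4.74-fold, and Spaca1, an acrosomal membrane protein, 4.97-fold with a second probe at -2.34. The groups did not overlap for any of the 22 genes of this list, beside 77.5% of all genes without overlap. Replicate 3 of Glis3KO2 was the nearest to WT for all 22, beside 15258 of all 21167 genes tested. Izumo1, the sperm protein that binds the egg receptor, fell 8.0-fold, from 0.47, 0.43 and 0.65 to -2.62, -3.22 and -1.60 (-3.00, SE 0.39, adjusted p = 0.001). Crem, a transcription factor of the spermatid programme, fell 4.76-fold on its brightest probe (-2.25, SE 0.39), while 5 other Crem probes ranged from -2.44 to 0.19, and the gene has several promoters and isoforms. Actl7b, a testis actin-like protein, fell 5.52-fold.

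Elongating spermatids showed the deepest falls of the lists, with every tested member between -3.95 and -1.50. Tnp2, a transition protein that replaces histones before protamines do, read 4.90, 5.74 and 5.30 in WT and 2.14, 0.51 and 1.44 in Glis3KO2, a 15.4-fold fall (-3.95, SE 0.43, adjusted p = 0.00071). WT itself varied here, and replicate 2 of Glis3KO2, not replicate 3, was at one end of its group and replicate 1 at the other. Tnp1, the other transition protein, fell 11.0-fold, from 7.29, 7.91 and 7.47 to 4.65, 3.29 and 4.34. Prm2, a protamine, fell 9.14-fold (-3.19, SE 0.41, adjusted p = 0.00098). Prm1 fell 4.72-fold on its brightest probe, from 7.66, 8.11 and 7.85 to 6.37, 4.91 and 5.62, and by -3.97 and -3.07 on 2 others. Replicate 2 was the lowest Glis3KO2 array for 21 of the 22 genes of this list and replicate 1 for 1, whereas in the pachytene list replicate 1 was the lowest for 19 of 24 and replicate 2 for 5. The nearest to WT was replicate 3 for 15 of the 22 and replicate 1 for 7.

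Genes of the sperm tail were lower as well. Odf1, of the outer dense fibres, fell 7.96-fold, Akap4, of the fibrous sheath, 8.22-fold, and Smcp, of the mitochondrial sheath, 7.37-fold. Smcp read 5.37, 5.76 and 5.64 in WT and 2.44, 2.07 and 3.62 in Glis3KO2, with no overlap. Of 27 tested genes of the flagellar axoneme 26 were lower (96.3%, beside 36.2% of all genes) and 0 higher, with a median of -2.24, and Rsph4a, a radial spoke protein of motile cilia, did not pass (-0.83, SE 0.57, adjusted p = 0.23). Dnah8, an axonemal dynein heavy chain, read 5.55, 5.39 and 5.59 in WT and 2.23, 2.49 and 4.11 in Glis3KO2, a 5.92-fold fall (-2.57, SE 0.48, adjusted p = 0.003). Tekt1, a protein inside the doublet microtubules, fell 3.98-fold, Rsph1, of the radial spoke head, 4.86-fold and Spag16, of the central apparatus, 4.45-fold. All 14 tested genes of the testis kinases and the CATSPER channel were lower, with a median of -2.58. The kinase Tssk2 fell 7.05-fold and its neighbour Tssk1 5.78-fold, although a second Tssk1 probe gave -0.43. Catsper1, a pore subunit of the sperm calcium channel, fell from 2.34, 2.64 and 2.46 to -0.71, -0.87 and 0.82, a 6.69-fold fall (-2.74, SE 0.44, adjusted p = 0.0018).

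Spermatid transcripts were reduced but detected in 4-week Glis3KO2. All 22 round spermatid genes, all 22 elongating spermatid genes and 26 of 27 axoneme genes were well above background on all 3 Glis3KO2 arrays. At 1 week, before these stages, 16 of the 22 round and 16 of the 22 elongating genes were above background on all 4 WT arrays. Relative to 4-week WT, the list medians in 1-week WT were -7.87 for round spermatids and -9.48 for elongating spermatids. The 1-week arrays lie on other slides, scanned on other days, so age and slide cannot be told apart. This holds for every comparison of signal between the ages. The 4-week Glis3KO2 testis, at -2.48 and -2.99, lay between 1-week WT and 4-week WT, and nearer to the latter.

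**Figure D3:**
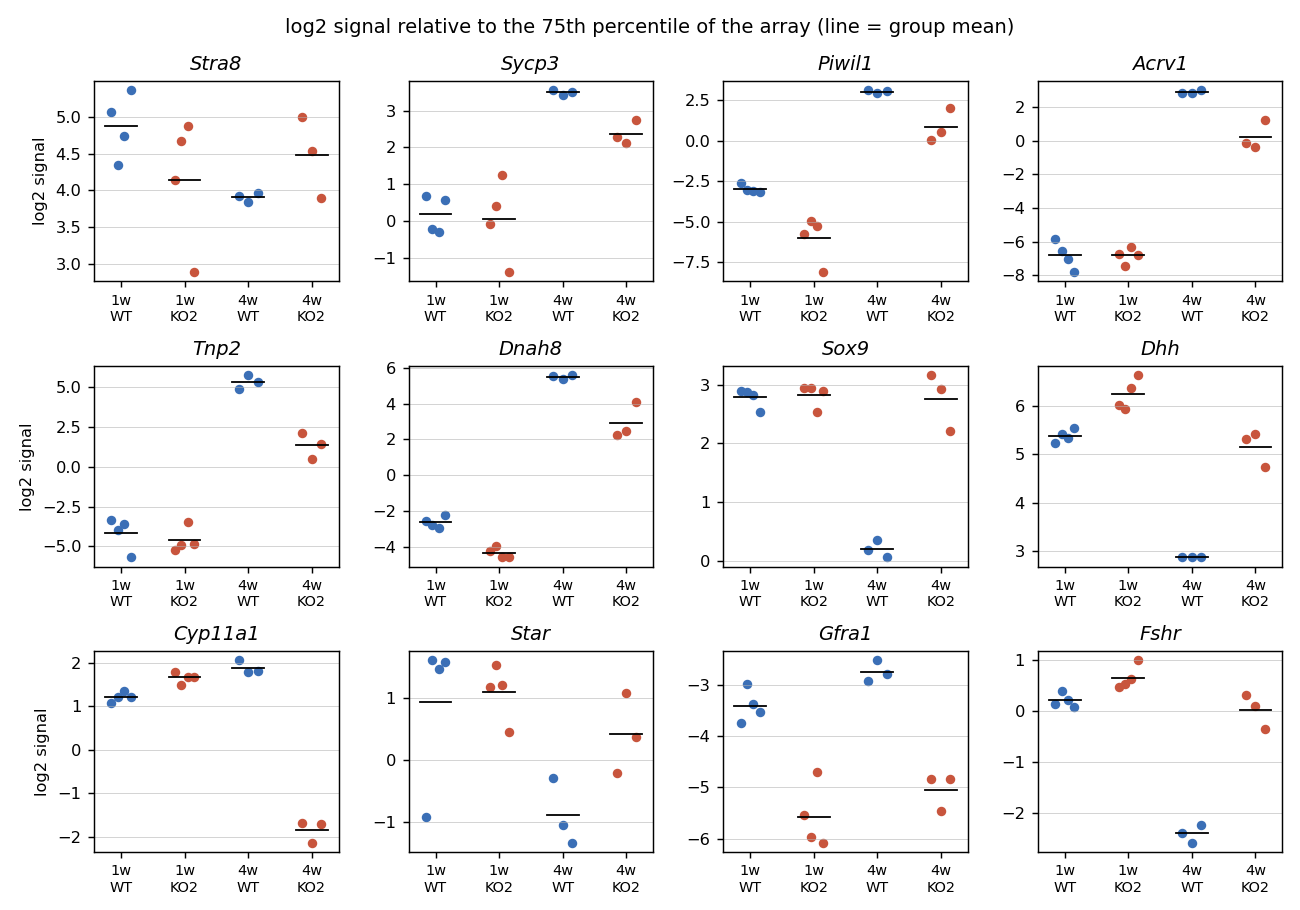
log2 signal relative to the 75th percentile of the array (vertical axis) of 12 genes in the 4 groups (1w and 4w, 1 and 4 weeks; KO2, Glis3KO2), with 1 point per array and a line at the group mean. Piwil1, Acrv1, Tnp2 and Dnah8 in 4-week Glis3KO2 lie between the 1-week arrays and 4-week WT, whereas Sox9 is as high as at 1 week and Cyp11a1 is below all other groups. The 1-week arrays lie on other slides than the 4-week arrays.

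Sertoli cell genes were higher as a group. Of 28 tested 23 were higher and 1 lower, beside 33.5% of all genes higher, with a median of 1.67. Sox9, the transcription factor of Sertoli identity, read 0.19, 0.36 and 0.06 in WT and 3.16, 2.92 and 2.21 in Glis3KO2, a 5.91-fold rise (2.56, SE 0.26, adjusted p = 0.00066) that 2 other probes put at 2.44 and 2.94. Fshr, the receptor of follicle-stimulating hormone, rose 5.40-fold, from -2.39, -2.58 and -2.23 to 0.33, 0.11 and -0.34. Wt1, a transcription factor, rose 3.99-fold, Cldn11, a tight junction protein of the blood-testis barrier, 4.51-fold and Clu, the secreted chaperone clusterin, 4.12-fold. In each of these 5 genes every Glis3KO2 array lay above every WT array and replicate 3 was the lowest of its group.

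The hormone and growth factor genes of Sertoli cells rose less evenly. Gdnf, the ligand that maintains spermatogonial stem cells, read -4.52, -4.16 and -4.71 in WT and -2.87, -2.80 and -3.30 in Glis3KO2, a 2.78-fold rise (1.47, SE 0.21, adjusted p = 0.0014), opposite in direction to its co-receptor Gfra1. Amh, the hormone of immature Sertoli cells, rose 2.50-fold and Inha, the inhibin subunit, 1.80-fold. Rhox5, an androgen-regulated homeobox gene, read 4.22, 4.17 and 4.12 in WT and 3.14, 4.71 and 4.80 in Glis3KO2, so replicate 1 lay below WT and the others above (0.05, SE 0.43, adjusted p = 0.93). Without replicate 1 Rhox5 was higher (0.58, adjusted p = 0.014). Drd4, a dopamine receptor gene of the list, was the member that fell (-1.35). Tsx, Trf and Aqp8 did not pass. The summed linear signal of the list was 286 to 305 on the WT arrays and 728 to 927 on the Glis3KO2 arrays, in units of the 75th percentile of the array. In 1-week WT the list median was 1.26 above 4-week WT, beside 1.67 for 4-week Glis3KO2.

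Leydig cell genes moved in both directions. Of 16 tested 8 were lower (50%, beside 36.2% of all genes) and 5 higher (31.2%, beside 33.5%), with a median of -0.72. Without Glis3KO2 replicate 1 the median was -0.37. Cyp11a1, which cleaves the side chain of cholesterol in the first step of steroid synthesis, read 2.05, 1.78 and 1.81 in WT and -1.68, -2.14 and -1.72 in Glis3KO2. That was a 13.2-fold fall with little spread (-3.72, SE 0.18, adjusted p = 0.00044), and a second probe gave -3.74. Cyp17a1, which makes the androgen precursors, fell 7.45-fold, from 2.07, 1.77 and 1.93 to -0.65, -1.06 and -1.20 (-2.90, SE 0.19, adjusted p = 0.00045). Hsd17b3, which makes testosterone, fell 3.76-fold and Hsd3b6, the adult Leydig isoform of the dehydrogenase before it, 3.49-fold. Over the Leydig list replicate 3 of Glis3KO2 was the nearest to WT for 8 of 16 genes, and replicate 1 was the lowest for 11.

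Other Leydig genes did not follow these enzymes. Star, which moves cholesterol into the mitochondrion, read -0.28, -1.04 and -1.33 in WT and -0.21, 1.09 and 0.37 in Glis3KO2, higher by 1.30 (SE 0.40, adjusted p = 0.023) with replicate 1 just above the WT range. The call was lost without WT replicate 2 (1.23, adjusted p = 0.07) or 3 (1.08, 0.075), without Glis3KO2 replicate 2 (0.97, 0.069), on slide 4 alone and in the fit of all arrays. Hsd11b1, which regenerates glucocorticoid, rose 5.21-fold and the lipoprotein receptor Scarb1 2.10-fold. Insl3, a peptide hormone of Leydig cells, was low on Glis3KO2 replicate 1 alone, at 2.49 against 4.26 and 4.62 on the other replicates and 4.69, 4.34 and 4.74 in WT (-0.80, SE 0.54, adjusted p = 0.22). Hsd3b1 did not pass (-0.64), nor did Lhcgr, the receptor of luteinizing hormone (-0.02), which was dim and varied from -5.99 to -3.71 in Glis3KO2.

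Peritubular, endothelial and macrophage genes were higher more often than the 33.5% of all genes. Of 11 peritubular genes 9 were higher (81.8%) and 1 lower, with a median of 1.22. The lower one, the smooth muscle actin Actg2, lost its call without WT replicate 2 or 3 or Glis3KO2 replicate 2, where the count was 0. Myh11, a smooth muscle myosin, read 0.49, 0.17 and 0.61 in WT and 2.13, 1.86 and 1.25 in Glis3KO2 (1.33, SE 0.26, adjusted p = 0.0037). Acta2, smooth muscle actin, rose 2.28-fold, with other probes from 0.19 to 2.17, while Cnn1, calponin, did not pass (0.08, adjusted p = 0.74). Of 12 endothelial genes 7 were higher (58.3%) and 0 lower, with a median of 0.86, among them Pecam1 (1.50) and Cdh5 (1.25), adhesion proteins of the vessel wall. Kdr, the VEGF receptor, did not pass (0.43, adjusted p = 0.14). Of 18 macrophage genes 11 were higher (61.1%) and 4 lower, with a median of 0.80. Csf1r, the receptor that macrophages need to survive, read -0.87, -1.30 and -0.99 in WT and 0.02, 0.29 and 0.22 in Glis3KO2 (1.23, SE 0.17, adjusted p = 0.0012), though other Csf1r probes gave -0.08 and 1.17. C1qa, of the complement system, rose 2.24-fold, and Cd74, the invariant chain of antigen presentation, 2.60-fold. Adgre1, a general macrophage marker, did not differ beyond its spread (-0.02, SE 0.18, adjusted p = 0.91). Aif1, a calcium-binding protein of the list, fell 6.67-fold, from 4.79, 5.19 and 4.96 to 2.18, 1.55 and 3.00, opposite to most of its list. The summed linear signal of the list was 34.8 to 45.4 in Glis3KO2 and 48.4 to 52.9 in WT, and this order rests on Aif1: without it the sums were 30.3 to 42.5 and 16.3 to 20.8, a split made after the values were seen.

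Markers of tissues next to the testis varied between single arrays. Crisp1, a protein of the epididymis, fell from WT values as far apart as -0.16, -3.02 and -5.16 to -6.83, -6.30 and -8.17. It was above background on 1 of 3 Glis3KO2 arrays, and its call (-4.32, SE 1.21, adjusted p = 0.016) was lost without Glis3KO2 replicate 3 (adjusted p = 0.055) and on slide 4 alone. Of 8 epididymal genes 2 were lower (25%, beside 36.2% of all genes) and 1 higher (12.5%, beside 33.5%). Without Glis3KO2 replicate 3 the number lower was 1. The summed linear signal of that list ranged from 0.993 to 3.79 in WT and from 0.533 to 0.971 in Glis3KO2. Fabp4, a fatty acid carrier of adipocytes, was 1.79 and 1.31 on WT replicates 1 and 2 but -1.52 on WT replicate 3, against 0.54, -0.21 and 0.76 in Glis3KO2. Without WT replicate 3 it was lower (-1.19, adjusted p = 0.027). Adipoq, also from adipocytes, fell 4.62-fold, from 0.43, 0.46 and 0.37 to -1.72, -2.56 and -1.08. Of 7 adipose genes 1 was lower (3 without WT replicate 3) and 1 higher, 14.3% each, beside 36.2% and 33.5% of all genes. Of 4 blood genes 0 passed, with 0 lower and 0 higher in limma. The heme enzyme Alas2 ranged from -1.27 to 0.38 in Glis3KO2 around WT values of -0.18 to 0.05. The part of these tissues in the other results was not tested.

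Most hedgehog genes were higher. In the testis Sertoli cells secrete Dhh, which acts on interstitial cells through the receptor Ptch1 and the GLI factors. Of 12 genes tested 8 were higher (66.7%, beside 33.5% of all genes) and 1 lower, with a median of 1.38. Dhh read 2.87, 2.86 and 2.88 in WT and 5.31, 5.42 and 4.73 in Glis3KO2, a 4.88-fold rise (2.29, SE 0.21, adjusted p = 0.00058). Ptch1, both receptor and target, rose 4.93-fold, from -5.38, -5.83 and -5.85 to -2.99, -3.10 and -4.06. Gli1, a target that reads out pathway activity, rose 2.49-fold (1.32, SE 0.25, adjusted p = 0.003). Glis2, the relative of Glis3, read -0.41, -0.71 and -0.57 in WT and 2.26, 2.13 and 1.38 in Glis3KO2 (2.49, SE 0.25, adjusted p = 0.00066), with 0.86 on a second probe. Hhip, an inhibitor that the pathway induces, rose 7.22-fold. Sufu, the cytoplasmic inhibitor, was the member that fell (-2.68, SE 0.35), with other probes from -2.87 to -0.49. Ihh and Glis1 were among the 3 that did not pass. Dhh is also in the Sertoli list, and both list medians were above 0.

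Retinoic acid controls spermatogonial differentiation and meiotic entry, and its genes were mostly higher: of 16 tested 10 rose (62.5%, beside 33.5% of all genes) and 4 fell, with a median of 0.98. The number that fell was 1 without WT replicate 1 or Glis3KO2 replicate 1, and 0 without WT replicate 2 or 3. Aldh1a1, the synthetic enzyme of Sertoli cells, read 5.38, 5.04 and 5.20 in WT and 6.66, 6.76 and 6.46 in Glis3KO2 (1.42, SE 0.16, adjusted p = 0.00076). Aldh1a2, the synthetic enzyme of germ cells, was lower (-0.47, SE 0.14, adjusted p = 0.024), but the call was lost in 6 of 19 alternatives, among them without Glis3KO2 replicate 1 (adjusted p = 0.056) or WT replicate 1 (0.071), 2 (0.07) or 3 (0.1). Cyp26b1, which breaks retinoic acid down, rose 2.64-fold and Rara, a receptor, 1.99-fold. Rarg, the receptor of spermatogonia, did not pass (0.17, adjusted p = 0.36).

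Targets of p53, the transcription factor of the damage response, were mostly higher. Of 16 tested 11 were higher (68.8%, beside 33.5% of all genes) and 2 lower, with a median of 1.38. Bax, a mitochondrial death effector, read -0.16, -0.10 and -0.18 in WT and 1.26, 1.38 and 0.85 in Glis3KO2, a 2.47-fold rise (1.31, SE 0.18, adjusted p = 0.0011). Btg2, an antiproliferative gene, rose 8.89-fold, with 1.81 and 1.91 on other probes, and Bbc3, a death effector, 7.98-fold. Cdkn1a, the cell cycle inhibitor p21, rose 1.44-fold, and the call was lost without WT replicate 1 (0.52, adjusted p = 0.059) or 3 (0.50, 0.068). Mdm2, which degrades p53, fell 2.37-fold and the death receptor Tnfrsf10b 2.99-fold, with -0.15 on a second Tnfrsf10b probe. Without Glis3KO2 replicate 3 the number lower was 4.

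Cell cycle genes, which dividing spermatogonia, meiotic cells and somatic cells all use, were mostly lower. Of 30 tested 19 were lower (63.3%, beside 36.2% of all genes) and 3 higher, with a median of -0.94, and without Glis3KO2 replicate 3 the number higher was 7. Mki67, the proliferation antigen, read 2.06, 2.08 and 2.01 in WT and 1.00, 0.92 and 1.17 in Glis3KO2 (-1.02, SE 0.14, adjusted p = 0.0011). Top2a, which untangles chromosomes, fell 2.32-fold and the replication clamp Pcna 2.29-fold. The mitotic kinases Aurka and Plk1 fell 3.57-fold each, on arrays where replicate 3 was again nearest to WT. Ccnb1, the mitotic cyclin, fell 3.24-fold on its brightest probe, but other Ccnb1 probes gave -0.26 and 0.12. The helicase subunit Mcm5 read 1.68, 1.54 and 1.66 in WT and 1.78, 1.50 and 1.40 in Glis3KO2 (-0.07, adjusted p = 0.71), and Ccna2, the cyclin of mitotic S phase, did not pass either (0.22, adjusted p = 0.40). The other subunits of that helicase were split: Mcm2, Mcm3 and Mcm4 did not pass, Mcm6 rose (0.62) and Mcm7 fell (-1.24).

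Genes of cholesterol, the substrate of steroid synthesis, were lower and higher in shares close to those of all genes. Of 22 tested 9 were lower (40.9%, beside 36.2% of all genes) and 8 higher (36.4%, beside 33.5%), with a median of -0.20. Cyp51, which makes the meiosis-activating sterol precursor, fell 5.45-fold on its brightest probe, with others from -2.16 to -0.07, and Sqle, squalene epoxidase, 3.32-fold. Synthetic enzymes moved both ways, with Hmgcs1, Mvd, Ebp and Dhcr7 among the 8 higher and Mvk, Fdps and Fdft1 among the 9 lower. Genes used as reference in such samples were called in shares near those of all genes. Of 15 tested 4 were lower (26.7%, beside 36.2% of all genes) and 6 higher (40%, beside 33.5%). Actb was at 1.25 (0.21 on a second probe), Gapdh at 1.37, B2m at 0.95 and Ppia at -0.72.

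Genes known only by a clone, Rik, Gm, LOC or accession name were passed over in what follows, and some of these fell further than those named. Among genes with other names that were above background on all 6 arrays, Klk1b27, a kallikrein protease, had the largest fall, from 0.48, 0.19 and 0.70 to -3.28, -4.60 and -3.99, a 21.3-fold fall (-4.41, SE 0.34, adjusted p = 0.00051). It was followed by Bpifa3 (-4.20), the cystatin-like Cstl1 (-4.14), Ttc24 (-4.13), Tex13c3 (-4.12), Tex46 (-4.12), Nudt16l2 (-4.06), Tnp2 (-3.95), the actin Acte1 (-3.94) and the glycosyltransferase Mgat4e (-3.94). In all 10, Glis3KO2 replicate 2 was the lowest and replicate 1 the nearest to WT, with medians of -3.21, -4.97 and -4.07 on replicates 1, 2 and 3. The pattern seen over all lower genes, with replicate 3 nearest to WT, did not hold for them. At 1 week, 1 of the 10 was above background on all 4 WT arrays. Among genes not above background on any Glis3KO2 array, the largest lower bounds were those of Nr4a3, a nuclear receptor, at least 9.05-fold lower, the desmosomal cadherin Dsc1, at least 5.69-fold, Frrs1l, at least 5.44-fold, the potassium channel Kcna3, at least 5.29-fold, and Mpig6b, at least 4.65-fold lower. These bounds set the WT mean against the lowest detectable signal. The call of Kcna3 was lost without WT replicate 2 (adjusted p = 0.051), on slide 4 alone and with normexp correction, and that of Mpig6b with normexp correction (adjusted p = 0.091).

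The largest rises, chosen by the same rule, were larger than the largest falls. Ildr2, an immunoglobulin-like receptor, read -2.67, -3.26 and -3.09 in WT and 3.33, 3.24 and 2.35 in Glis3KO2, a 63.1-fold rise (5.98, SE 0.30, adjusted p = 0.00044), with 2.44 on a second probe. Galnt15, a glycosyltransferase, rose 55.2-fold and Tnfrsf12a, the TWEAK receptor, 54.6-fold, the latter from -1.27, -1.44 and -1.41 to 4.18, 4.76 and 4.25. Bcan, a matrix proteoglycan, rose 48.0-fold, with replicate 1 at 3.56 and replicate 3 at 0.97. The stress-induced transcription factor Atf3 rose 43.0-fold, from -5.26, -5.39 and -5.0 to -0.14, 0.89 and -0.12. Wfdc18 (5.32), the growth factor-binding protein Igfbp3 (4.97, with 2.09 on a second probe), Rasgef1c (4.93), the vasoconstrictor endothelin Edn1 (4.93) and the WNT inhibitor Sfrp4 (4.88) completed the 10 with such names. All 10 were above background on every 1-week WT array, where their median lay 4.19 above 4-week WT, and 4.30 above it in 1-week Glis3KO2. Wfdc18 and Galnt15 differed little between the ages in WT, with means of -3.35 and -2.28 at 1 week and -3.46 and -2.85 at 4 weeks. The others of the 10 lay further above 4-week WT. At 4 weeks the medians of all 10 on Glis3KO2 replicates 1, 2 and 3 were 5.54, 5.68 and 4.74. Among genes not above background on any WT array, the largest bounds were those of Tmem212, at least 9.36-fold higher, the muscle actin-binding Nebl, at least 8.20-fold, tenomodulin Tnmd, at least 8.02-fold, Fign, at least 7.40-fold, and the disulfide isomerase Pdia2, at least 6.02-fold higher.

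Germ cells express testis copies of several widely expressed genes, and the members of such pairs mostly went apart. Of 29 pairs with both copies tested, the testis copy was lower in 28, beside 36.2% of all genes. The widely expressed copy was higher in 19, beside 33.5% of all genes. In 18 pairs the testis copy fell while its relative rose, with medians over the 29 pairs of -1.95 for testis copies and 1.00 for their relatives. The glycolytic enzyme Pgk2 fell from 5.08, 5.36 and 5.24 to 2.25, 2.18 and 3.58, while its X-linked relative Pgk1 rose from 1.67, 1.75 and 1.68 to 3.02, 3.22 and 2.69. Gapdhs, the glyceraldehyde phosphate dehydrogenase of sperm, fell 8.11-fold and Gapdh rose 2.59-fold. Cytochrome c showed the same split, with Cyct at -2.08 and Cycs at 1.44, as did the cohesin subunits Rec8 (-1.39) and Rad21 (1.91). A second Rad21 probe went the other way (-2.09), and with the mean of all probes Rad21 was at -0.09.

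**Figure D4:**
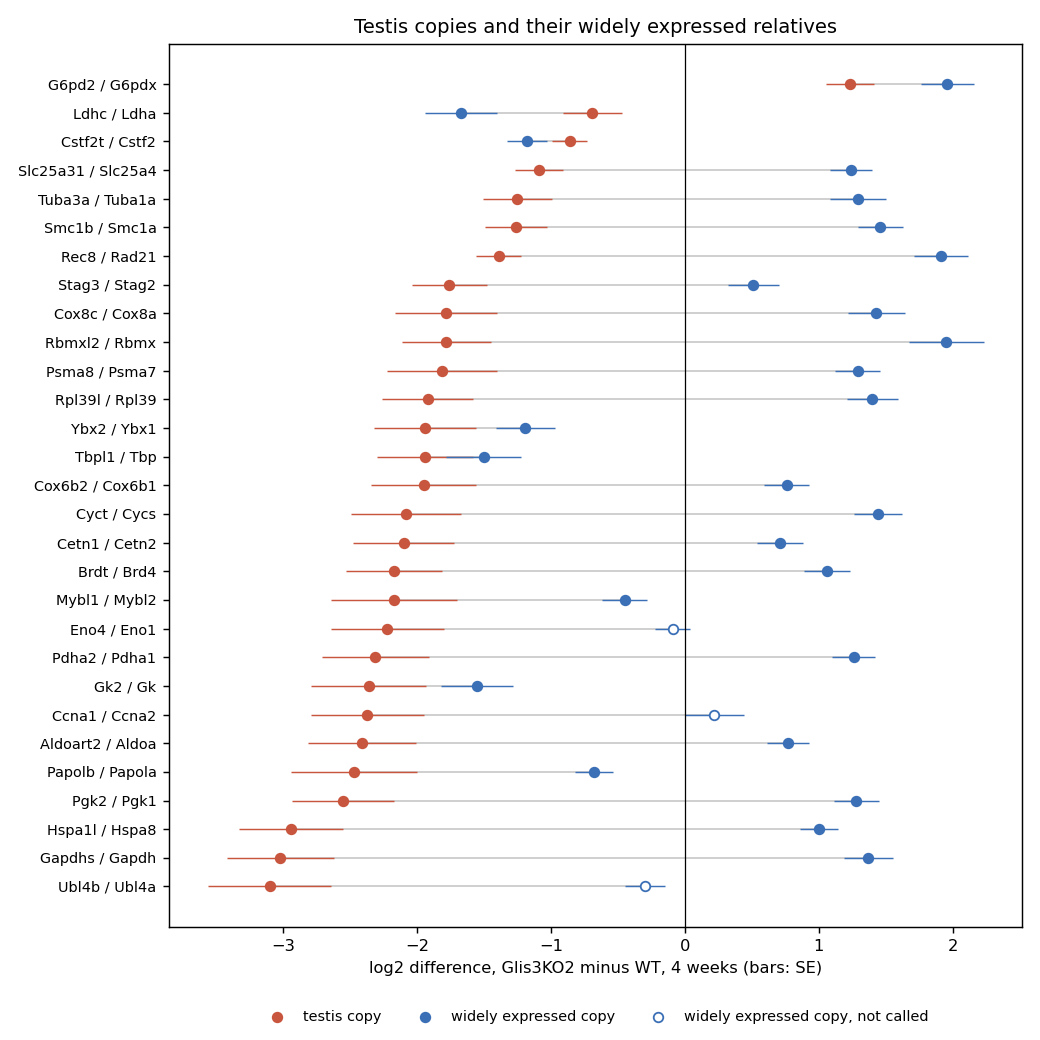
log2 difference at 4 weeks, Glis3KO2 minus WT (horizontal axis; bars are the SE of the limma fit), of 29 pairs of a testis copy (named first) and a widely expressed relative. The testis copies lie left of 0 in 28 pairs and most of the relatives lie right of 0; open points did not pass the test.

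Some pairs did not go apart. In 7 pairs both copies fell, among them Ldhc with Ldha. Ldha read 6.78, 6.95 and 6.89 in WT and 4.80, 5.0 and 5.80 in Glis3KO2, a deeper fall (-1.67, SE 0.27) than that of the testis copy (-0.69). Tbp (-1.50), Ybx1 (-1.19), Papola (-0.68), Gk (-1.55), Cstf2 (-1.18) and Mybl2 (-0.45) were the other relatives that fell. Second probes of Ldha (-1.84) and Tbp (-1.40) and other Papola probes (-1.42 to -0.62) gave the same direction. Other probes ranged from -2.19 to 2.05 for Gk, from -1.61 to 1.63 for Ybx1, and from 1.54 to 2.47 for Cstf2, which with the mean of all probes was higher (0.94). The Mybl2 call was lost in 8 of 19 alternatives, among them without WT replicate 1, 2 or 3 or Glis3KO2 replicate 2 (adjusted p 0.077 to 0.16). Eno1, Ubl4a and Ccna2 did not pass, although with the mean of all probes Ubl4a was higher (0.88). In 1 pair both copies were higher, G6pdx (1.96) and the dim G6pd2 (1.23).

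Genes on the X chromosome, which is silenced in pachytene spermatocytes, were higher more often than those of the autosomes. Of 785 X-linked genes tested 54.1% were higher and 22.9% lower, with a median difference of 0.76. Over the 20088 autosomal genes 32.8% were higher and 36.8% lower, with a median of -0.06. No single autosome came near the X, with 29.0% to 35.9% higher and 31.4% to 41.0% lower. The X median was 0.86, 0.91 and 0.47 on Glis3KO2 replicates 1, 2 and 3, and 0.59 with normexp correction. The X also held strong falls, with 13.9% of its genes at least 4-fold lower against 12.4% on the autosomes. Of 17 Y-linked genes tested 10 were lower and 4 higher. Of the 29 widely expressed copies 11 are X-linked, and 8 of these 11 were higher, beside 19 of all 29.

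**Figure D5:**
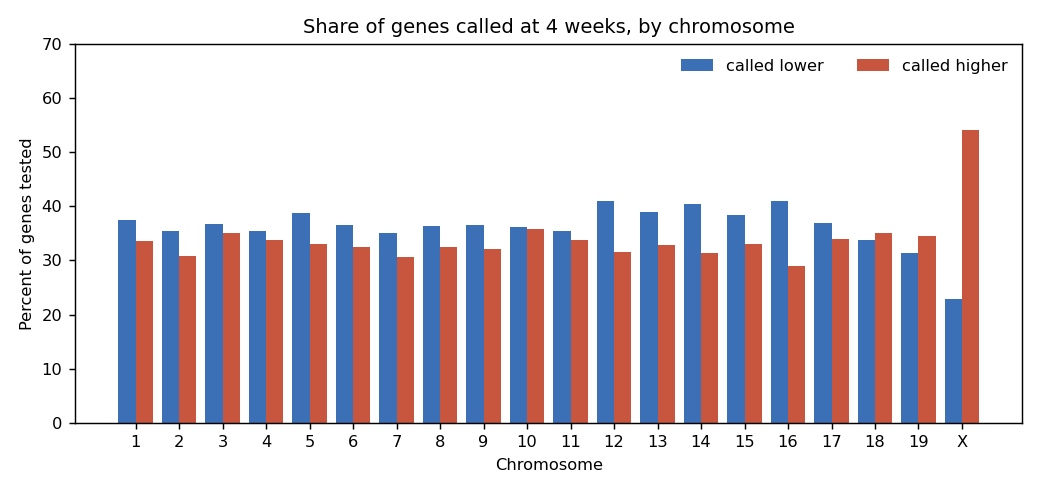
Percent of the genes tested on each chromosome (horizontal axis) that were called lower or higher in 4-week Glis3KO2 (vertical axis, percent; bars start at 0). The X stands out, with 54.1% higher and 22.9% lower, beside at most 35.9% higher on any autosome.

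The promoters of genes that fell were searched for 3 motifs in the RefSeq windows of 250 bases before to 50 after the gene start (GRCm38.p6), matched by symbol for 13539 of the 21167 genes. The motifs were TGACGTCA, the full cAMP response element, GTTGCC, part of the X-box that RFX factors bind, and AACNGNC, the core of the MYB site, each on both strands. GTTGCC was found in 18.7% of genes called lower and in 21.4% of those at least 4-fold lower, beside 12.6% of genes called higher, 12.0% of genes not called and 14.1% of all genes in the promoter table. Of 24 axoneme genes with a promoter 8 held it (33.3%), of 18 early meiotic genes 3 and of 19 round spermatid genes 2. Lists of other cells varied too, with 3 of 12 macrophage, 3 of 13 Leydig and 0 of 20 Sertoli genes. Of 10 genes of the testis kinases and the CATSPER channel 0 held it. Over all genes tested the share was 14.8%. AACNGNC was in 41.3% of genes called lower and 34.7% of those called higher, and in 36.0% of all. TGACGTCA was rare, in 3.60% of genes called lower and 2.78% of those called higher, beside 3.06% of all genes tested. It was in 2 of 19 round spermatid, 1 of 18 elongating spermatid and 0 of 24 axoneme genes. A match is a description of the letters and not a bound site. The 250 bases before the start are shown for the 4 core germ cell genes that hold GTTGCC there, with each match on either strand in capitals, from 5′ to 3′ on the strand of the gene. They are Tekt1 at chr11:72361883-72362132 (minus strand), Spag16 at chr1:69826720-69826969 (plus strand), Smc1b at chr15:85131958-85132207 (minus strand) and Actl7b at chr4:56741426-56741675 (minus strand).
Tekt1 promoter: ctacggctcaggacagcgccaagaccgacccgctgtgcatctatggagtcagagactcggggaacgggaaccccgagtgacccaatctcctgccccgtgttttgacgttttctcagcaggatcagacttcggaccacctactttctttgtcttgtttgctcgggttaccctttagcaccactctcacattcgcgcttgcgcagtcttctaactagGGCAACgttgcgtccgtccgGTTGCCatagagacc
Spag16 promoter: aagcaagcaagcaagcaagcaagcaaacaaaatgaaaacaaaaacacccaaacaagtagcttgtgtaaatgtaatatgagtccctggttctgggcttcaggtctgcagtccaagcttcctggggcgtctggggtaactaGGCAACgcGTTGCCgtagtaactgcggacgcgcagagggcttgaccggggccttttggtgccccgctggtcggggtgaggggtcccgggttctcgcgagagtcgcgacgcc
Smc1b promoter: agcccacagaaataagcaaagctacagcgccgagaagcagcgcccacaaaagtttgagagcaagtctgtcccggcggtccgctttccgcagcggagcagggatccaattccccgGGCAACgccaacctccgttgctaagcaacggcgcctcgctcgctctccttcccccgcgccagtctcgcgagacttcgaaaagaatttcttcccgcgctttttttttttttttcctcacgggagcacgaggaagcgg
Actl7b promoter: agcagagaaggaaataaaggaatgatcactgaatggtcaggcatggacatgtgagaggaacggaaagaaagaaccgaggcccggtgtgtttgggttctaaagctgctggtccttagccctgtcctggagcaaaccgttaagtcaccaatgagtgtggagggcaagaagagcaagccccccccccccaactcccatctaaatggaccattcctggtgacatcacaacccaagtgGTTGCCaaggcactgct
Tekt1 and Spag16, both of the axoneme, hold 2 matches each, on opposite strands. Smc1b and Actl7b hold 1 each. The log2 differences of these genes were -1.99, -2.15, -1.26 and -2.47, in the order Tekt1, Spag16, Smc1b and Actl7b.

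The difference between the genotypes was set against that at 1 week in a fit of all 14 arrays, over 22470 genes. Among the 1-week Glis3KO2 arrays replicate 4 lies alone on slide 3 and was the lowest in the germ cell lists. In early meiotic prophase its median relative to the 1-week WT mean was -1.77, beside -0.39, 0.02 and -0.12 on replicates 1, 2 and 3. The 4-week difference was lower than the 1-week difference for 5334 genes (23.7%) and higher for 6694 (29.8%). This balance depends on scaling: of the calls, 44.3% were lower with the 75th percentile and 59.2% with median scaling (6714 lower and 4632 higher), which moved the median over all genes from 0.17 to -0.15. Of the lists, that of undifferentiated spermatogonia had the largest upward change between the ages. Of 24 tested 19 had a higher difference at 4 weeks and 0 a lower one, with a median difference of -1.81 at 1 week and 0.20 at 4 weeks. The 4-week fit tested 20 genes of this list, so some of the 24 passed the filter only through the 1-week arrays. Such genes were not well above background on all arrays of either 4-week group, which limits their 4-week difference. For Lin28a the difference went from -3.61 at 1 week to 0.43 at 4 weeks (change of 4.05, SE 0.73, adjusted p = 0.0006). Gfra1 had log2 differences of -2.17 at 1 week and -2.31 at 4 weeks, and their change did not pass (change of -0.13, SE 0.43, adjusted p = 0.82).

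Genes of spermatids went the other way. Of 22 round spermatid genes 17 had a lower difference at 4 weeks and 0 a higher one, and of 22 elongating spermatid genes 19 and 0. Early meiotic genes showed 7 lower of 24, a share near the 23.7% of all genes, and 1 higher, and germ cell genes of all stages 0 lower and 1 higher of 14. Among Leydig genes 10 of 16 had a lower difference at 4 weeks and 2 a higher one, with medians of 0.40 at 1 week and -0.72 at 4 weeks. Cyp11a1 changed from 0.45 to -3.72 (change of -4.17, SE 0.20, adjusted p = 2.5e-07). Sertoli genes had 19 of 28 higher and 1 lower, with Sox9 going from 0.05 to 2.56 (change of 2.51, SE 0.29, adjusted p = 5.3e-05), while the changes of Amh (0.36, adjusted p = 0.37) and Inha (0.03, adjusted p = 0.92) did not pass. The largest changes among genes above background on all 14 arrays were downward in Dnajb8, a chaperone, Prss55, a serine protease, and Eml6, a microtubule-associated protein, and upward in Ildr2, Atf3 and Wfdc18. Dnajb8 turned its direction, with a log2 difference of 3.66 at 1 week and -3.33 at 4 weeks.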

How the data were processed

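Total RNA of whole testis was hybridised to Agilent mouse arrays with 1 colour, and the scanner files were made with Agilent Feature Extraction 9.5, per the submitters' processing notes. The deposited intensity values of each spot (gProcessedSignal) are background-subtracted by that software, per the file headers. The deposited series table holds the same intensities on a linear scale. It was used as an alternative, set on a log2 scale and without leaving out outlier spots. Non-control spots were set on a log2 scale, less the 75th percentile of the array, and then averaged per probe without outlier spots. The brightest probe stood for a gene. A gene was tested when it was well above background on all arrays of at least 1 of the 4-week groups, with limma 3.58.1 (R 4.3.3), lmFit and eBayes, on 3 against 3 arrays and with Benjamini-Hochberg adjustment. A bound for a gene not above background in 1 group sets the mean of the brighter group against the lowest signal well above background. The fit of the change between ages used all 14 arrays. Tables and figures were made with Python 3.11.15, numpy 2.4.6, pandas 2.3.3, scipy 1.17.1 and matplotlib 3.10.9.

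The genes named are Glis3, the 10 largest differences in each direction among called genes above background on all 6 arrays with groups that do not overlap, the 5 largest bounds in each direction, core members of the gene lists, copies of paralog pairs, and, between ages, the 3 largest changes in each direction and core members. Genes known only by a clone, Rik, Gm, LOC or accession name were passed over. Other members of a list appear only to illustrate its count. The members and lists were chosen with earlier results of these data known. The replicate numbers did not pair the samples: deviations of same-numbered arrays correlated at 0.14, -0.31 and 0.08. The procedure was tested on simulated data with 21154 genes, where it recovered 29% of 100 genes changed by 1 log2 unit and 61% of 100 changed by 2. Only those genes were changed, a far smaller share than the 69.7% of genes called at 4 weeks. These rates therefore do not give the sensitivity of the 4-week fit. Alternatives covered background, scaling, filter, probe choice, moderation, slide, replicate number, the samples fitted and each array left out.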

Additional observations from a re-analysis of the deposited data

Results flagged for a closer look

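The difference between Glis3KO2 and WT was compared between 4 weeks and 1 week for 28 named genes, and for 22 of them the change passed the test in limma, beside 23.7% of all genes with a lower and 29.8% with a higher difference at 4 weeks. The first 6 below were chosen for the size of this change, so that they passed is no finding. Values are the 4-week difference minus the 1-week difference on the log2 scale. Among the largest changes over all genes, those of Dnajb8 (-6.98), Prss55 (-6.25) and Eml6 (-5.12) were downward and those of Ildr2 (6.87), Atf3 (5.96) and Wfdc18 (5.71) upward. Among spermatogonial genes the change was 4.05 for Lin28a, 2.48 for Nanos3, 2.32 for Pou5f1 and 1.71 for Kit, and -1.96 for Dmrtb1, whose adjusted p ranged from 0.0045 to 0.09 over the alternatives. The Dmrtb1 call was lost without any single 4-week array other than Glis3KO2 replicate 3. Sertoli genes changed upward, by 2.51 for Sox9, 2.08 for Cldn11, 2.07 for Wt1, 1.99 for Fshr, 1.64 for Clu and 0.98 for Gdnf. The Gdnf change did not pass with median scaling (0.66, adjusted p = 0.099). Among Leydig genes the change was -4.17 for Cyp11a1, -3.37 for Cyp17a1, -2.35 for Hsd3b6, -2.12 for Hsd17b3 and -1.43 for Insl3. The Insl3 call was lost in several alternatives, among them quantile normalization (-0.79, adjusted p = 0.22) and the removal of 4-week WT replicate 1 (0.072) or 3 (0.079). The change of Star was upward and did not pass (1.15, adjusted p = 0.24), but did without 1-week WT replicate 1 (1.76, adjusted p = 0.011).

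In the 1-week groups of 4 arrays, 4 of 56 groups held an array far from the others, by a gap that is large for the group's range (Dixon's criterion). Chance alone gives about 1 in 20 such groups. The lowest 1-week Glis3KO2 array stood apart for Sox9 (0.85 of the range) and Wt1 (0.90), and the lowest 1-week WT array for Star (0.94) and Cyp17a1 (0.90). Groups of 3 arrays, as at 4 weeks, were not examined this way.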

How the results depend on the processing

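Of 162 genes called at 4 weeks among the largest differences, the bounds, the core members and the paralog pairs, 147 kept their call and direction in every alternative run. List members named only to illustrate a count, such as Actg2, are not among the 162. With the mean of all probes Cstf2 (0.94), Ubl4a (0.88) and Rad21 (-0.09) turned their direction, and Glis3 did with normexp correction (0.16) while ranging from -0.98 to -0.17 with 1 array left out. Leaving out 1 array gave 6733 to 7948 genes lower and 5868 to 8074 higher at 4 weeks. With the replicate number as a block, which does not pair these samples, 7051 genes were lower and 6656 higher at 4 weeks, and 4887 and 6229 between ages. With slide as a block 7826 were lower and 7239 higher. Of the list medians under the alternatives 433 moved by less than the spread between Glis3KO2 arrays and 27 by more. On slide 5 alone, with 1 array of each genotype, the medians were -0.09 for undifferentiated spermatogonia, -0.80 for germ cells of all stages and for early meiotic prophase, -1.14 for pachytene, -1.61 for round spermatids, -1.28 for the axoneme, 0.83 for peritubular cells, 1.14 for macrophages, 0.58 for blood, -0.69 for the cell cycle, 1.07 for p53 targets and 0.10 for reference genes. On slide 4 alone they were 0.64 for macrophages and 1.54 for p53 targets. With normexp correction they were 0.01 for the epididymis, 1.16 for p53 targets, 0.91 for hedgehog and 0.67 for retinoic acid. The cholesterol median was -0.09 with the mean of all probes, -0.27 with median scaling and -0.12 without probes that resemble the telomeric repeat. Both slide subsets and the removal of those probes were chosen after seeing the data. With 1 array left out, medians ranged from 0.68 to 0.97 for macrophages, -0.14 to 0.32 for blood, -1.06 (without WT replicate 3) to 0.27 (without WT replicate 1) for adipose tissue, -0.22 to -0.15 for cholesterol and 1.21 to 1.56 for p53 targets. The causes were not tested. The retinoic acid list had 0 to 4 genes lower over the alternatives. Signal over background limits Glis3 and the genes given as bounds.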
